A study of Homo sapiens with 6 samples.

Results

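The genes described here encode the proteins of the mitochondrial ribosome. They were taken as the protein-coding rows of the deposited expression table whose GENCODE 29 symbol begins with MRPL or MRPS followed by a number, which gave 78 of the 32434 gene IDs in the table. By symbol, 49 of them belong to the large subunit (MRPL) and 29 to the small subunit (MRPS). RNA sequencing of SK-N-BE(2), a human neuroblastoma cell line, compared cells with a lentiviral hairpin against MYT1 (shMYT1, 3 libraries) and cells with a control hairpin (shNC, 3 libraries). Both groups were grown in RPMI medium with fetal bovine serum. The treatment field describes lentiviral infection for 24 h and puromycin for 48 h, and the perturbation is described here as a knockdown although the genotype and design fields call it a knockout. No label gives the number of hairpin sequences, says whether the selected cells are a pool or a clone, or says that the libraries of a group came from separate cultures. The p-values therefore measure the spread between these libraries, which may be technical.

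Mitochondria carry their own ribosomes, which translate the few mRNAs of the mitochondrial genome into core subunits of the respiratory chain and of ATP synthase. All proteins of these ribosomes are encoded in the nucleus, made in the cytosol and imported, while their ribosomal RNAs are transcribed inside the organelle. Some of the proteins have bacterial counterparts and others were added in the mitochondrial lineage, and several symbols do not follow the place of the protein: MRPS18A and MRPS30 are built into the large subunit, and MRPS36 is a component of the 2-oxoglutarate dehydrogenase complex.

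MYT1, the target of the hairpin and a zinc-finger regulator of neuron development, was read at 4.20, 4.13 and 4.36 FPKM (fragments per kilobase of exon and M fragments) in the shMYT1 libraries, against 5.73, 5.12 and 5.18 FPKM in the shNC libraries. Every shMYT1 value was under every shNC value, and the mean was 20.8% lower (log2 difference -0.28, SE 0.05, limma adjusted p = 0.0102). Over the 6 libraries, permuting the groups exactly gave a two-sided p = 0.1, which is as small as 3 against 3 can give. The libraries held 18.16 to 20.3 M fragments in shMYT1 and 21.08 to 21.68 M in shNC. All 10 markers of sympathetic neuroblasts in the list used were expressed, with a summed level of 2612 to 2715 FPKM in shMYT1 and 3016 to 3175 FPKM in shNC. Of the 12 fibroblast and smooth muscle markers, 9 reached a mean of 1 FPKM, and their list summed to 155 to 158 FPKM in shMYT1 and 197 to 202 FPKM in shNC. Of those 9, 4 rose and 3 fell, with a median log2 difference of 0.09: LUM averaged 54.6 FPKM in shMYT1 and 97.7 FPKM in shNC, while TAGLN and ACTA2 had log2 differences of 0.54 and 0.52. The 6 blood and endothelial markers found each had a mean under 1 FPKM over the 6 libraries, with sums of 0.999 to 2.11 FPKM in shMYT1 and 0.410 to 0.667 FPKM in shNC, and 4 of the 6 Schwann cell and glial markers found likewise had means under 1 FPKM, with sums of 2.71 to 3.42 FPKM in shMYT1 and 2.27 to 2.44 FPKM in shNC. The part of these marker differences in the results was not tested. In bulk RNA, fewer cells of a type and less RNA per cell cannot be told apart.

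Mitochondrial ribosomal protein genes were expressed at moderate levels with a wide spread among members. In FPKM, a level per length, 72 of the 78 genes had a mean of at least 5 over the 6 libraries and 8 had a mean above 50. The median member stood at 16.6 to 17.5 FPKM in the shMYT1 libraries and at 16.4 to 16.9 FPKM in the shNC libraries. All members together made up 0.595% ± 0.00678 of the summed FPKM in shMYT1 and 0.608% ± 0.00748 in shNC (SD, n = 3 each). Among the tested members the highest mean was 62.5 times the lowest.

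**Figure D1:**
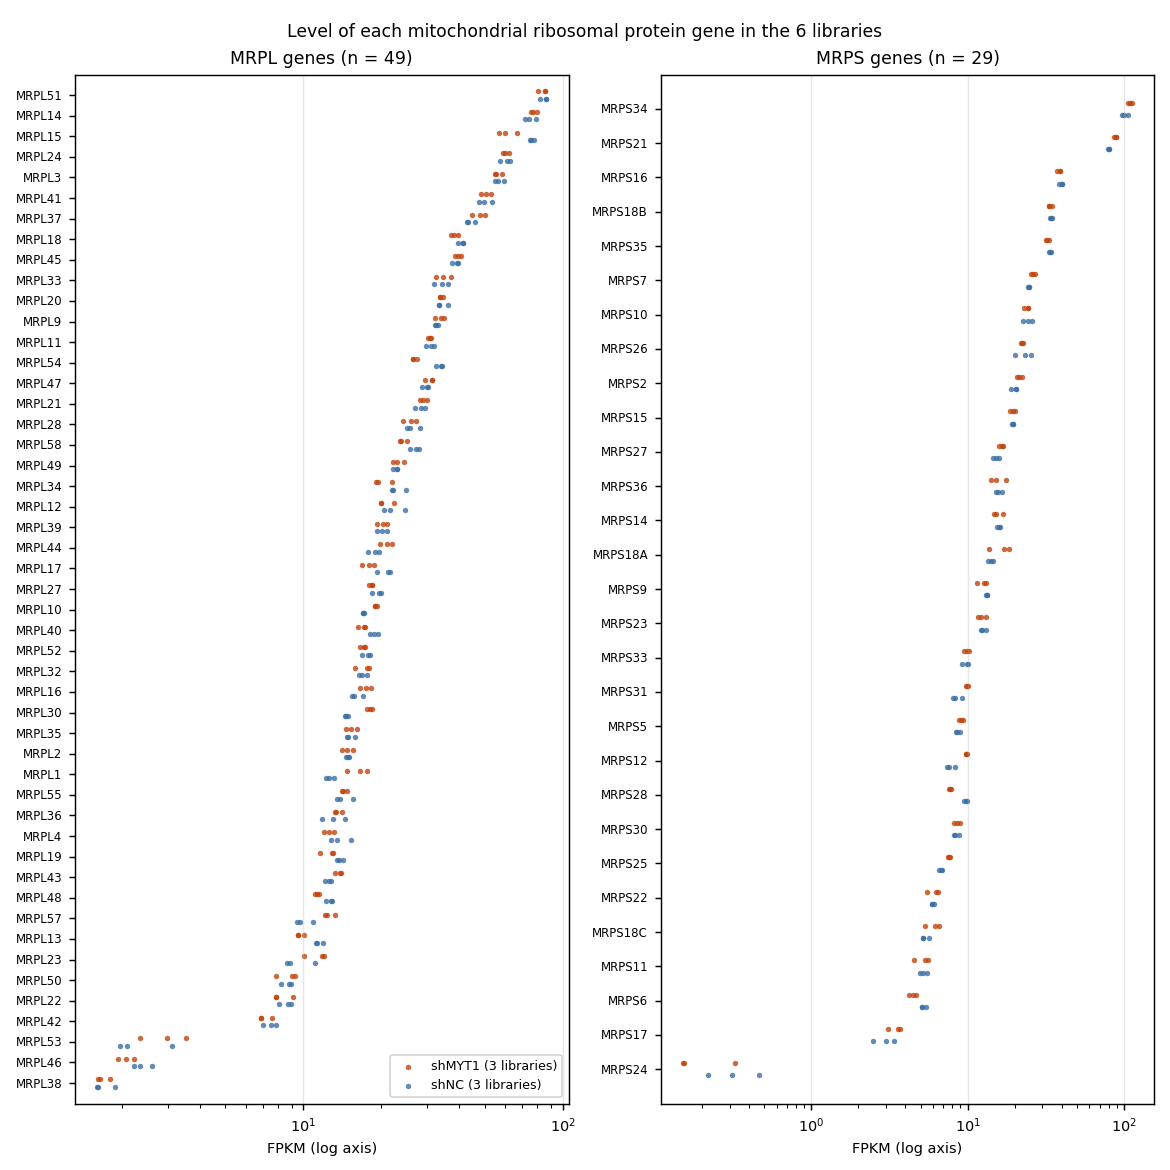
Level of each of the 78 genes in the 6 libraries, in FPKM on a log axis whose range differs between the panels, with large subunit genes on the left and small subunit genes on the right, ordered by mean. Each point is 1 library, shMYT1 above shNC in each row. Between genes the tested means span 62.5-fold, while the points of both groups lie close together within a row. MRPS24 lies far below the other genes.

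The highest member was MRPS34, a small subunit protein of the mitochondrial lineage, at 107, 109 and 113 FPKM in shMYT1 and 97.6, 99.9 and 107 FPKM in shNC. The groups met at the edge, and MRPS34 did not pass the test (log2 difference 0.11, limma adjusted p = 0.095). MRPL51, a large subunit protein of the mitochondrial lineage, had 80.7, 85.3 and 85.8 FPKM in shMYT1 and 86.2, 81.5 and 86.4 FPKM in shNC. MRPL14, with a bacterial counterpart in the large subunit, had 75.2, 77.0 and 79.7 FPKM in shMYT1 and 71.5, 79.0 and 74.5 FPKM in shNC. In both genes the libraries of the groups were interleaved. MRPS21 was the third highest and is described with the genes that rose.

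At the low end, MRPS24 was nearly unread, with 0.153, 0.152 and 0.323 FPKM in shMYT1 and 0.463, 0.219 and 0.310 FPKM in shNC, or 7 to 26 fragments per library. It shares exon bases on the same strand with the annotated readthrough gene URGCP-MRPS24, so its fragments cannot be assigned with certainty, and it was the only member below the 1 FPKM mean required for testing. For a transcript with 1 kb of exon, 3 fragments would read as 0.140 to 0.170 FPKM, a floor for counting error only. MRPL38, of the central protuberance of the large subunit, had 1.79, 1.64 and 1.61 FPKM in shMYT1 and 1.61, 1.87 and 1.601 FPKM in shNC, with the groups interleaved. MRPL53 had 2.35, 3.53 and 2.97 FPKM in shMYT1 and 2.08, 3.12 and 1.95 FPKM in shNC (log2 difference 0.23, limma adjusted p = 0.343). MRPL53 also shares exon bases with a neighbour, CCDC142, and its shMYT1 and shNC values overlapped.

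Annotated length and overlap with other genes moved with these levels. Over the 78 genes, mean FPKM and the number of annotated exon bases (959 to 16393) had a Spearman rho of -0.58. It is a description across genes that share the same libraries. FPKM is itself divided by exon length, so these quantities are not independent. The 16 members whose exons overlap those of a same-strand gene had a median mean level of 8.76 FPKM, against 17.5 FPKM for the other 62. For 29 members some exon bases are also covered by a gene of the other strand, and there fragments of both genes cannot be told apart unless strand was used in counting.

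As a family, the genes did not shift in one direction. Of the 77 tested members, 9 rose, 9 fell and 59 did not pass (limma, adjusted p under 0.05), so that 23.4% of the members were called, close to the 24.2% of all 14106 tested genes. By direction, the background was 11.9% higher and 12.3% lower in shMYT1. The median log2 difference of the members was 0.008, with quartiles of -0.05 and 0.10 and a range from -0.32 to 0.34, and the median of all tested genes was -0.005. A difference of at least 0.1 either way was found in 32 of the 77 members (41.6%) and in 7505 of the 14106 tested genes (53.2%). The groups did not overlap in 12 members with shMYT1 above shNC and in 15 members with shMYT1 below, while of all tested genes 42.3% did not overlap (20.5% above and 21.8% below). Among the members that did not pass, 8 had an unadjusted p under 0.05. With each library scaled to a common FPKM total, 7 members rose and 13 fell, and the share of higher calls over all genes was 36.4% in place of 49.2%. Without the shNC replicate 2 library the members' count was 5 up and 4 down while that of all tested genes was 2038. The members that fell numbered 4 without shNC replicate 3 and 5 without shMYT1 replicate 1 or shMYT1 replicate 2. In these fits 1469, 1102 and 1370 of all 14106 tested genes fell.

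The large and small subunits had similar gene-wise differences, with medians given without a test. Of the 49 large subunit genes, 5 rose and 7 fell, with a median log2 difference of 0.001. Of the 28 tested small subunit genes, 4 rose and 2 fell, with a median of 0.017. With MRPS18A and MRPS30 counted in the large subunit and MRPS36 left out, the medians were 0.006 over 51 large subunit genes and 0.016 over 25 small subunit genes. Rises and falls were also found both among genes with a bacterial counterpart and among genes of the mitochondrial lineage. In the large subunit 3 of 30 bacterial-type genes rose and 3 fell, and 2 of 21 mitochondrial-type genes rose and 4 fell. In the small subunit the counts were 2 up and 2 down of 15 bacterial-type genes, and 2 up and 0 down of 10 mitochondrial-type genes. By symbol, 24.5% of the large and 21.4% of the small subunit genes were called. The sets by origin had 20% to 28.6% called, near the 24.2% of all tested genes.

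MRPL1, MRPS12, MRPL57 and MRPL30 had the largest rises. MRPL1, the protein of the mobile stalk near the exit site for tRNA, had 16.5, 17.5 and 14.8 FPKM in shMYT1 and 13.2, 12.2 and 12.6 FPKM in shNC, with means of 16.3 ± 1.39 and 12.7 ± 0.465 FPKM (SD, n = 3 each; log2 difference 0.34, SE 0.06, limma adjusted p = 0.0107). MRPS12, the small subunit protein of the decoding centre, had 9.81, 9.81 and 9.90 FPKM in shMYT1 and 7.64, 7.42 and 8.27 FPKM in shNC (log2 difference 0.31, SE 0.04, limma adjusted p = 0.00393). The groups stayed apart in both genes, and MRPS12 shares exon bases on the opposite strand with SARS2, the mitochondrial seryl-tRNA synthetase. MRPL57, a large subunit protein of the mitochondrial lineage, had 12.2, 13.2 and 12.4 FPKM in shMYT1 and 9.68, 9.48 and 10.9 FPKM in shNC (log2 difference 0.30, SE 0.06, limma adjusted p = 0.0116). MRPL30, with a bacterial counterpart in the large subunit, had 18.01, 18.4 and 17.6 FPKM in shMYT1 and 14.8, 14.6 and 14.5 FPKM in shNC (log2 difference 0.28, SE 0.03, limma adjusted p = 0.00135). MRPL30 had the smallest adjusted p of the genes that rose, with 18.02 ± 0.402 FPKM in shMYT1 and 14.6 ± 0.183 FPKM in shNC, and it shares exon bases with a pair of unnamed genes on its own strand. These 4 calls held when any 1 library was left out.

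The other genes that rose changed less. MRPS31, a small subunit protein of the mitochondrial lineage with several pseudogenes of like sequence, had 9.79, 10.1 and 9.94 FPKM in shMYT1 and 9.25, 8.25 and 8.11 FPKM in shNC (log2 difference 0.20, SE 0.05, limma adjusted p = 0.0325). MRPS25, also of the mitochondrial lineage and overlapping NR2C2 on the opposite strand, had 7.75, 7.47 and 7.57 FPKM in shMYT1 and 6.82, 6.56 and 6.79 FPKM in shNC (log2 difference 0.15, SE 0.04, limma adjusted p = 0.0213). In both genes the lowest shMYT1 library was above the highest shNC library. MRPL10, which anchors the stalk that recruits translation factors, had 18.9, 18.97 and 19.2 FPKM in shMYT1 and 16.9, 17.2 and 17.0 FPKM in shNC (log2 difference 0.15, SE 0.03, limma adjusted p = 0.00937). MRPS21, with a bacterial counterpart in the small subunit, had 89.2, 89.5 and 85.9 FPKM in shMYT1 and 80.7, 79.4 and 80.3 FPKM in shNC (log2 difference 0.14, SE 0.03, limma adjusted p = 0.0114). MRPL10 averaged 19.01 ± 0.191 FPKM in shMYT1 and 17.1 ± 0.127 FPKM in shNC, and MRPS21 averaged 88.2 ± 1.98 FPKM in shMYT1 and 80.1 ± 0.656 FPKM in shNC, both with a gap between the groups. MRPL43, a large subunit protein of the mitochondrial lineage that overlaps SEMA4G and TWNK on the opposite strand, averaged 13.7 ± 0.393 FPKM in shMYT1 and 12.5 ± 0.305 FPKM in shNC (log2 difference 0.12, limma adjusted p = 0.047). The MRPL10 call held when any 1 library was left out. The MRPS21 call was lost without shNC replicate 2 (limma adjusted p = 0.0519), that of MRPS25 without shMYT1 replicate 1 or 3 or shNC replicate 1 or 2 (up to 0.0799), that of MRPS31 without any library but shNC replicate 1 (up to 0.105), and that of MRPL43 without any of the 6 (0.061 to 0.138).

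MRPL54, MRPL15, MRPS28 and MRPL13 had the largest falls. MRPL54, a large subunit protein of the mitochondrial lineage, had 26.5, 26.6 and 27.4 FPKM in shMYT1 and 32.5, 34.3 and 34.0 FPKM in shNC, with means of 26.8 ± 0.537 and 33.6 ± 0.989 FPKM (SD, n = 3 each; log2 difference -0.32, SE 0.03, limma adjusted p = 0.00115). MRPL15, with a bacterial counterpart in the large subunit, had 60.2, 66.5 and 57.0 FPKM in shMYT1 and 75.3, 77.8 and 75 FPKM in shNC (log2 difference -0.31, SE 0.06, limma adjusted p = 0.00914). The gap between groups was wide in both, and MRPL15 had the larger spread among shMYT1 libraries, 61.2 ± 4.85 against 76.0 ± 1.57 FPKM in shNC. MRPS28, a small subunit protein whose gene overlaps the exons of AC036214.3 on its own strand, had 7.80, 7.69 and 7.62 FPKM in shMYT1 and 9.84, 9.73 and 9.47 FPKM in shNC (log2 difference -0.30, SE 0.03, limma adjusted p = 0.0015). MRPL13, with a bacterial counterpart in the large subunit and an exon overlap with MTBP on the opposite strand, had 9.51, 10.1 and 9.55 FPKM in shMYT1 and 11.9, 11.2 and 11.3 FPKM in shNC (log2 difference -0.22, SE 0.04, limma adjusted p = 0.00981). These 4 calls held when any 1 library was left out, and MRPL15, MRPS28 and MRPL13 are the 3 members on chromosome 8.

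The other genes that fell were MRPL17, MRPS6, MRPL58, MRPL48 and MRPL40. MRPL17, with a bacterial counterpart in the large subunit, had 16.9, 17.9 and 18.8 FPKM in shMYT1 and 19.3, 21.6 and 21.2 FPKM in shNC (log2 difference -0.20, SE 0.06, limma adjusted p = 0.0393). MRPS6, with a bacterial counterpart in the small subunit, had 4.70, 4.47 and 4.24 FPKM in shMYT1 and 5.09, 5.41 and 5.12 FPKM in shNC (log2 difference -0.18, SE 0.05, limma adjusted p = 0.0341). No library of one group entered the range of the other in either gene, and MRPS6 shares exon bases with SLC5A3 on its own strand. MRPL58, a peptidyl-tRNA hydrolase built into the large subunit that can release stalled peptides, had 23.5, 25.1 and 23.9 FPKM in shMYT1 and 25.7, 27.2 and 27.8 FPKM in shNC (log2 difference -0.15, SE 0.04, limma adjusted p = 0.0411). MRPL48 had 11.3, 11.1 and 11.5 FPKM in shMYT1 and 12.2, 12.7 and 12.9 FPKM in shNC (log2 difference -0.14, SE 0.03, limma adjusted p = 0.0249). MRPL40 averaged 16.9 ± 0.520 FPKM in shMYT1 and 18.7 ± 0.653 FPKM in shNC (log2 difference -0.14, limma adjusted p = 0.0379). All 5 calls depended on single libraries. The MRPL17 call was lost without shMYT1 replicate 1 or 2 or shNC replicate 2 or 3 (limma adjusted p up to 0.122), that of MRPL58 without shMYT1 replicate 1 or 3 or shNC replicate 2 or 3 (up to 0.125), that of MRPS6 without any library but shMYT1 replicate 1 (up to 0.113), that of MRPL48 without any library but shNC replicate 1 (up to 0.0887), and that of MRPL40 without any of the 6 (0.0538 to 0.102).

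**Figure D2:**
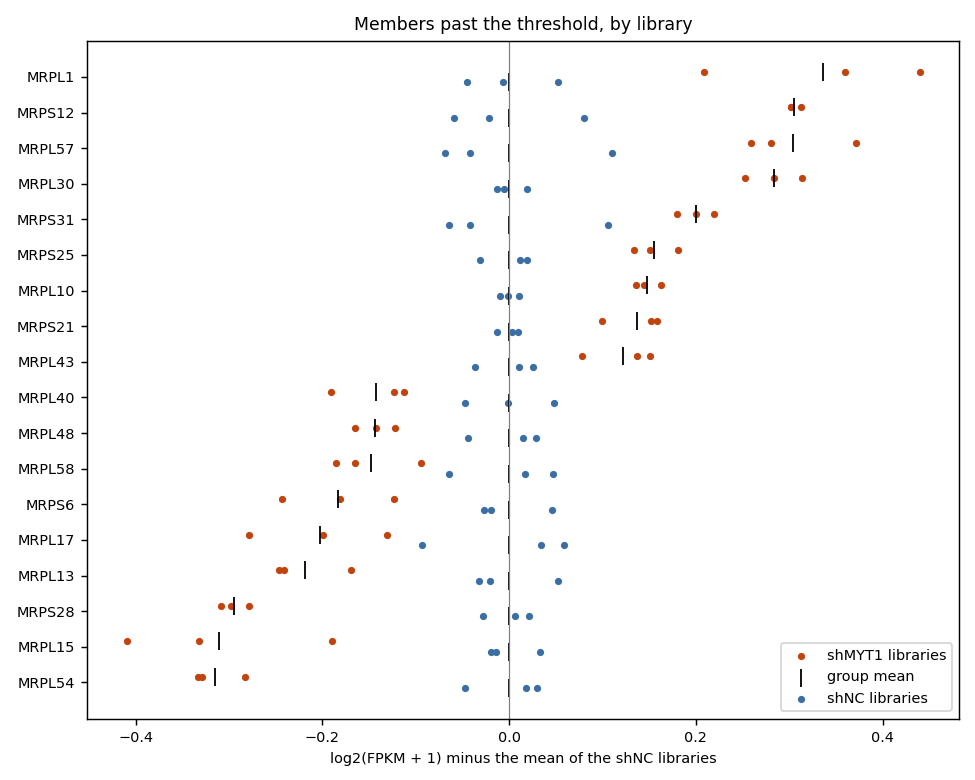
Level of the 18 called members in each library, as log2(FPKM + 1) minus the mean of the shNC libraries, so that the black bar of each shMYT1 group is the log2 difference. Each point is 1 library and each bar a group mean, with shMYT1 drawn above shNC in each row. The means run from 0.34 for MRPL1 to -0.32 for MRPL54, and no shMYT1 point enters the shNC range in any row.

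Several of the members with large differences, though not MRPL30, lie among genes that differed the same way. For each tested gene and library, the median centred log2 level of the 50 nearest tested genes on its chromosome was taken, without the gene itself. The neighbour median is the group difference of these values, shMYT1 minus shNC. This median was beyond 0.1 either way for 11 members, of which 8 were called (72.7%), and for 1729 of all tested genes, of which 795 were called (46.0%). Within 0.1, 10 of 66 members (15.2%) and 2619 of 12341 tested genes (21.2%) were called. Across the 77 members the gene's difference and that of its neighbours had a Pearson r of 0.67, and across all 14070 placed genes 0.33. By rank, the Spearman rho of the 77 members was lower, at 0.40, and no rank value was taken over all genes. These are descriptions, since neighbouring genes come from the same libraries.

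The 3 genes on chromosome 8 are far apart but each had neighbours with lower levels in shMYT1. MRPL15 (GRCh38 chr8:54135210-54147901, plus strand) had a neighbour median of -0.26, MRPS28 (chr8:79918717-80030289, minus strand) one of -0.22, and MRPL13 (chr8:120380761-120445402, minus strand) one of -0.23. Measured from these neighbours, their differences were -0.05, -0.07 and 0.01 and did not pass the test (limma adjusted p = 0.46, 0.151 and 0.885). On chromosome 13, MRPL57 and MRPS31 had neighbour medians of 0.21 and 0.19, and differences from their neighbours of 0.10 and 0.005 (limma adjusted p = 0.359 and 0.955). The differences of MRPL1 on chromosome 4 and of MRPS12 on chromosome 19 were 0.13 and 0.09 after neighbour medians of 0.20 and 0.21 were taken off (limma adjusted p = 0.131 and 0.13). MRPS18C, the other member on chromosome 4, did not pass, but its difference of 0.14 stood beside a neighbour median of 0.15.

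Another set of members differed beyond their neighbours. MRPL30 (GRCh38 chr2:99181079-99197626, plus strand) kept a difference of 0.27 after a neighbour median of 0.01 (limma adjusted p = 0.00195). MRPL10 and MRPS21 had 0.18 and 0.17 after neighbour medians of -0.03 and -0.04 (limma adjusted p = 0.00469 and 0.00425). MRPL54 (GRCh38 chr19:3762664-3768575, plus strand) had neighbours at -0.15 and a remaining difference of -0.17 (limma adjusted p = 0.0146). MRPS25, MRPS6, MRPL48 and MRPL40 also passed, at 0.13, -0.17, -0.13 and -0.16 (limma adjusted p = 0.0458, 0.0404, 0.0319 and 0.0214). In this fit 10 members were called, 6 up and 4 down, against 20.3% of all genes, and 8 of the 10 had been called without it. MRPL44 at 0.18 and MRPS27 at 0.13 passed only here (limma adjusted p = 0.0465 and 0.0452), while MRPL58, MRPL17 and MRPL43 no longer passed (0.0529, 0.0675 and 0.0547).

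**Figure D3:**
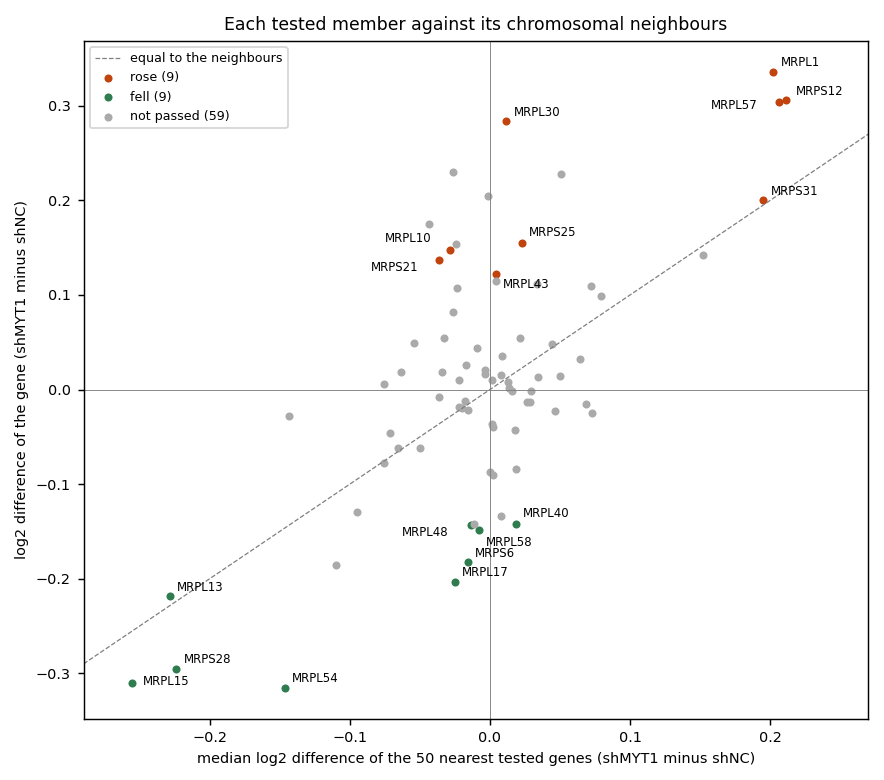
Log2 difference of each of the 77 tested members (vertical axis) against the neighbour median of its 50 nearest tested genes (horizontal axis). Both are shMYT1 minus shNC, and the called members are named. Points on the dashed line differ as much as their neighbours. MRPL15, MRPS28 and MRPL13 of chromosome 8 lie at the lower left and MRPL1, MRPS12, MRPL57 and MRPS31 at the upper right, while MRPL30 stands above the centre.

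By place in the ribosome, the 6 genes listed for the central protuberance of the large subunit stood low. This is a description without a test. The central protuberance is the knob at the top of the subunit that contacts the head of the small subunit. Its listed genes were MRPL18, MRPL38, MRPL40, MRPL46, MRPL48 and MRPL58. The list puts each gene in 1 region at most and may leave out other genes of this region. It was made with earlier results of these data known. None rose, MRPL40, MRPL48 and MRPL58 fell, and in all but MRPL38 every shMYT1 library lay below every shNC library, for which the background was 21.8%. The median log2 difference was -0.14, and -0.13 with the neighbour median removed, where MRPL40 and MRPL48 passed. MRPL18 had 37.1, 39.3 and 38.0 FPKM in shMYT1 and 39.4, 41.2 and 41.1 FPKM in shNC, and did not pass (log2 difference -0.09, limma adjusted p = 0.105). MRPL46 had 1.93, 2.22 and 2.07 FPKM in shMYT1 and 2.22, 2.35 and 2.61 FPKM in shNC, nearly touching between groups (log2 difference -0.14, limma adjusted p = 0.19).

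The other listed regions held 1 to 5 tested genes each, too few for a share to be set against the 24.2% of all tested genes. MRPS12, the only gene listed for the decoding centre, rose. None of 4 genes at the peptidyl transferase centre (MRPL2, MRPL3, MRPL16 and MRPL27) and none of 5 along the polypeptide exit tunnel (MRPL22, MRPL23, MRPL24, MRPL44 and MRPL45) passed, with medians of -0.01 and 0.03. Of the 3 genes listed for the stalk that recruits translation factors, MRPL10 rose. MRPL11 and MRPL12 had log2 differences of -0.002 and -0.09 without passing. MRPL1, of the mobile stalk near the exit site, rose and was listed in no region. Among the genes listed for the mRNA channel, MRPS2 and MRPS5 had log2 differences of 0.10 and 0.05 and did not pass, and MRPS24 was not tested.

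MRPS18A, MRPS18B and MRPS18C are paralogs that occupy different places in the ribosome. MRPS18A, of the large subunit, had 13.7, 17.0 and 18.4 FPKM in shMYT1 and 13.5, 14.02 and 14.4 FPKM in shNC (log2 difference 0.20, limma adjusted p = 0.181). MRPS18B had 33.3, 34.6 and 33.0 FPKM in shMYT1 and 34.0, 33.8 and 34.8 FPKM in shNC (log2 difference -0.02, limma adjusted p = 0.615). MRPS18C had 5.32, 6.54 and 6.22 FPKM in shMYT1 and 5.22, 5.18 and 5.67 FPKM in shNC (log2 difference 0.14, limma adjusted p = 0.21). In all 3 paralogs the groups overlapped, and MRPS18A varied most among shMYT1 libraries. MRPS30, of the large subunit, had 8.49, 8.95 and 8.24 FPKM in shMYT1 and 8.21, 8.36 and 8.75 FPKM in shNC (log2 difference 0.02, limma adjusted p = 0.793). MRPS36, of the 2-oxoglutarate dehydrogenase complex, had 17.6, 15.2 and 14.1 FPKM in shMYT1 and 15.6, 16.5 and 15.1 FPKM in shNC (log2 difference -0.01, limma adjusted p = 0.931). Neither gene separated the groups.

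Summed over genes, the balance of the subunits differed while the median log2 differences of the subunits lay close together. The 49 large subunit genes summed to 1198, 1242 and 1220 FPKM in shMYT1 and 1217, 1232 and 1258 FPKM in shNC. The 29 small subunit genes summed to 586, 600 and 589 FPKM in shMYT1 and 564, 570 and 579 FPKM in shNC. The large subunit sums were interleaved and the small subunit sums were higher in every shMYT1 library. The ratio of large to small sums was 2.04, 2.07 and 2.07 in shMYT1 and 2.16, 2.16 and 2.17 in shNC, or 2.06 ± 0.0154 and 2.16 ± 0.00833 (SD, n = 3 each), 4.73% lower in shMYT1. Abundant genes weigh most in such sums, and the largest differences of group means were -14.8 FPKM for MRPL15, 8.09 FPKM for MRPS21 and 8.02 FPKM for MRPS34. With those 3 genes left out, which were picked for their contribution so that a smaller gap had to follow, the ratio was 2.91, 2.93 and 2.97 in shMYT1 and 2.96, 2.96 and 3.02 in shNC, and the groups overlapped. With any 1 of the 3 left out alone, the groups stayed apart. They also stayed apart without the 11 members whose neighbours were shifted, at 1.97 ± 0.0181 in shMYT1 and 2.03 ± 0.0101 in shNC. The mean log2(FPKM + 1) of large minus that of small subunit genes, in which abundant genes weigh no more than others, was 0.36 to 0.39 in shMYT1 and 0.40 to 0.43 in shNC. With MRPS18A and MRPS30 moved to the large subunit and MRPS36 left out, the ratio of sums was 2.26 in shMYT1 and 2.36 in shNC. No p is given for these sums and scores over the members.

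**Figure D4:**
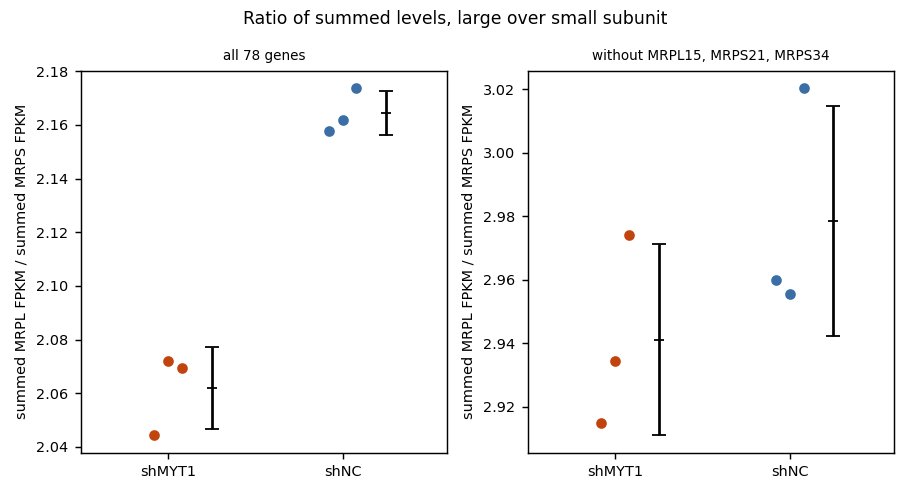
Ratio of the summed FPKM of large subunit genes to that of small subunit genes in each library (points, shMYT1 left of shNC), with the group mean and SD (bars, n = 3), for all 78 genes on the left and without MRPL15, MRPS21 and MRPS34 on the right. The vertical axes do not start at 0 and differ between panels. With all genes the shMYT1 ratios of 2.04 to 2.07 lie below the shNC ratios of 2.16 to 2.17, and without the 3 genes the points overlap.

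Mitochondrial ribosomal proteins with other names gave 1 fall and 0 rises among 5 genes. Of DAP3, PTCD3, AURKAIP1, CHCHD1 and GADD45GIP1, 4 did not pass and had log2 differences of 0.07 to 0.10. GADD45GIP1, a large subunit protein, had 47.5, 49.1 and 49.2 FPKM in shMYT1 and 52.3, 53.4 and 58.6 FPKM in shNC and fell (log2 difference -0.17, limma adjusted p = 0.0408), with neighbours on chromosome 19 at -0.13 and a remaining difference of -0.04 that did not pass (limma adjusted p = 0.505). Its groups did not overlap, and the call was lost without any of the shMYT1 libraries or without shNC replicate 2 (limma adjusted p up to 0.121).

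Among 28 genes of mitoribosome assembly, 1 rose and 3 fell (14.3%, against 24.2% of all tested genes), with a median log2 difference of 0.007. MTERF3, needed in mice for assembly of the large subunit, fell to 12.5 ± 0.234 FPKM in shMYT1, against 16.6 ± 0.564 FPKM in shNC (log2 difference -0.38, limma adjusted p = 0.000839). MTERF3 lies on chromosome 8 with neighbours at -0.20, and kept -0.17 beyond them (limma adjusted p = 0.00776). The ribosomal RNA methyltransferases MRM1 and MRM2 fell by 0.33 and 0.12 on the log2 scale (limma adjusted p = 0.0248 and 0.0412), and the helicase DDX28 rose by 0.25 (0.0162). MRM2 was lost without any of the 6 libraries (limma adjusted p up to 0.131), MRM1 without shMYT1 replicate 1 or 2 (up to 0.078) and DDX28 without shNC replicate 2 (0.0505).

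Of 16 mitochondrial translation factors, 3 rose and 1 fell (25%, close to the 24.2% of all tested genes). The initiation factor MTIF3, on chromosome 13 with neighbours at 0.19, rose by 0.31, the insertase OXA1L by 0.20 and the elongation factor TUFM by 0.15 on the log2 scale (limma adjusted p = 0.00897, 0.0143 and 0.0144). Beyond its neighbours MTIF3 had 0.12 and did not pass (limma adjusted p = 0.151). TUFM was the most abundant of them, at 93.5 ± 2.96 FPKM in shMYT1 and 83.9 ± 1.57 FPKM in shNC. GUF1, the mitochondrial homolog of bacterial LepA, fell by 0.17 (limma adjusted p = 0.0288). OXA1L was lost without shNC replicate 2 (limma adjusted p = 0.0553), TUFM without shMYT1 replicate 1 or shNC replicate 1 or 2 (up to 0.0546), and GUF1 without shMYT1 replicate 2 or 3 or shNC replicate 1 or 2 (up to 0.0974).

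Of 19 tested genes for mitochondrial aminoacyl-tRNA synthesis, 3 rose and 1 fell (21.1%, near the 24.2% of all tested genes). FARS2, AARS2 and LARS2, which charge mitochondrial tRNAs with phenylalanine, alanine and leucine, rose by 0.30, 0.23 and 0.23 on the log2 scale (limma adjusted p = 0.00873, 0.00842 and 0.0116), and these calls held when any 1 library was left out. NARS2, the asparaginyl-tRNA synthetase, fell by 0.13 (limma adjusted p = 0.0482) and was lost without any of the 6 libraries (up to 0.145). SARS2, which overlaps MRPS12 on the opposite strand, averaged 1.12 ± 0.157 FPKM in shMYT1 and 0.850 ± 0.130 FPKM in shNC and was under the filter.

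Of 25 genes for mitochondrial transcription and RNA processing, 3 rose and 0 fell, against the background of 11.9% and 12.3%. The RNA-binding protein GRSF1 rose by 0.24, FASTKD5 by 0.21 and HSD17B10, a subunit of mitochondrial RNase P, by 0.20 on the log2 scale (limma adjusted p = 0.0048, 0.0179 and 0.0471). The GRSF1 neighbours on chromosome 4 stood at 0.15, and its remaining difference of 0.09 did not pass (limma adjusted p = 0.0638). FASTKD5 was lost without shMYT1 replicate 1 or 3 or shNC replicate 1 (limma adjusted p up to 0.0629), and HSD17B10 without any library but shNC replicate 3 (up to 0.14). Fragments of GADD45GIP1, DDX28, MTIF3, OXA1L, GUF1, AARS2 and NARS2 are shared with exons on the other strand, and those of FASTKD5 with UBOX5 on its own, so they cannot be assigned with certainty.

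Of the RNAs that the proteins assemble with, MT-RNR2 passed and MT-RNR1 did not, and the difference between them was not tested. The large ribosomal RNA MT-RNR2 was read at 5469, 5802 and 5440 FPKM in shMYT1 and 5140, 5045 and 4887 FPKM in shNC (log2 difference 0.15, SE 0.04, limma adjusted p = 0.0289). The small ribosomal RNA MT-RNR1 was read at 609, 635 and 627 FPKM in shMYT1 and 650, 625 and 630 FPKM in shNC (log2 difference -0.03, limma adjusted p = 0.555). The groups were apart for MT-RNR2 and overlapped for MT-RNR1. The MT-RNR2 call was lost without any of the 6 libraries (limma adjusted p = 0.0516 to 0.0887), without the filter (0.633), without the variance trend (0.0541), under the common FPKM total (0.0625) and under quantile normalization, which sets the highest values equal between libraries (1). Of the 13 mRNAs of the mitochondrial genome, 3 rose and 0 fell (23.1%, against 24.2% of all tested genes), with a median log2 difference of 0.06. Without the filter none of the calls held, with limma adjusted p = 0.557 for MT-CO2, 0.221 for MT-CYB and 0.85 for MT-CO1. MT-CO1 was also lost under quantile normalization (1), under the common FPKM total (0.0941) and without any library but shMYT1 replicate 1 (up to 0.142). The 84 tested cytosolic ribosomal protein genes had 23 rises and 3 falls (31.0%, against 24.2% of all tested genes). By direction, 11.9% of all tested genes rose and 12.3% fell. The cytosolic genes had a median of 0.07, and the difference from the mitochondrial family was not tested.

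**Figure D5:**
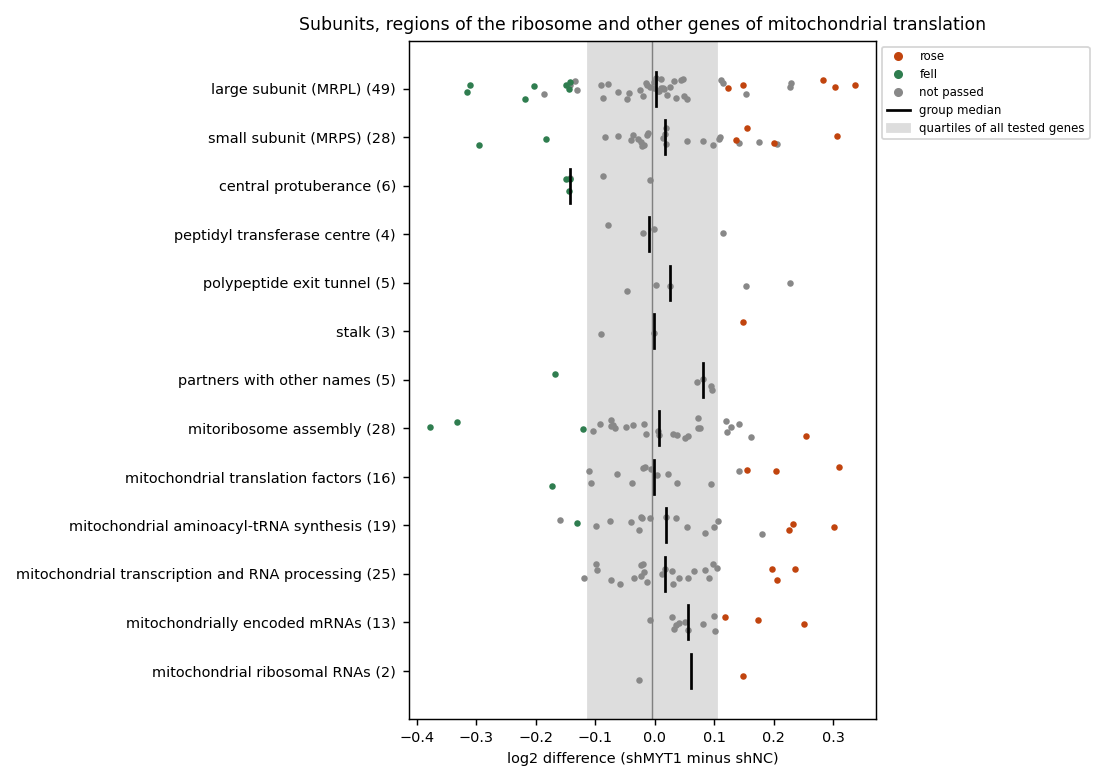
Log2 differences (shMYT1 minus shNC) of the tested genes of each subunit, of 4 regions of the large subunit and of the other lists of mitochondrial translation, with the number tested in parentheses. Each point is a gene, black bars are group medians and the grey band spans the quartiles of all tested genes (-0.11 to 0.10). Group medians lie inside the band except that of the 6 genes listed for the central protuberance at -0.14.

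Promoter windows of 250 bases before to 50 bases after the RefSeq start (GRCh38.p14) were available for 69 of the 78 members, and 6 sets of letters were searched on both strands. CCGGAAG, the core bound by ETS factors, occurred in 29 of the 69 windows (42.0%), against 20.2% of the windows of 9191 other tested genes and 10.7% of 27305 windows in all. Of the 29 genes, 5 rose and 4 fell, while of all tested genes 11.9% rose and 12.3% fell. The stretches below show these letters, or their reverse complement CTTCCGG, in capitals in those 9 called genes, and are shown because the same letters stood beside genes that went up and genes that went down.
MRPL30 (rose, chr2:99181031-99181053, plus strand): ctgctgcgCTTCCGGgaagtggt
MRPS12 (rose, chr19:38930931-38930953, plus strand): gatagcgcCCGGAAGaggctaga
MRPS21 (rose, chr1:150293860-150293882, plus strand): tgagaaccCTTCCGGtgggctag
MRPS31 (rose, chr13:40771208-40771230, minus strand): gcgccaggCCGGAAGcggaagag
MRPL43 (rose, chr10:100987501-100987523, minus strand): tcccggaaCCGGAAGcctcgagg
MRPL54 (fell, chr19:3762653-3762675, plus strand): actgacgtCTTCCGGaaacgtgc
MRPL40 (fell, chr22:19432526-19432548, plus strand): gcgcacgcCCGGAAGcggcgagg
MRPL48 (fell, chr11:73787803-73787825, plus strand): ttcagaagCTTCCGGaactaaaa
MRPL58 (fell, chr17:75012654-75012676, plus strand): agcgcccgCCGGAAGcagtcgca

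AAGATGGC, the core of the YY1 motif, occurred in 20 of the 69 windows (28.99%), against 5.55% of the windows of other tested genes and 3.03% of all windows. In 15 of the 20 it stood after the start, and in 12 of the 20 its ATG was an annotated start codon, so that the letters also spell the opening of the protein. Of the 19 of these genes that were tested, MRPS12 rose and 0 fell, with a median log2 difference of 0.008. Of the 49 tested members with a window but without the letters, 13 were called, against 24.2% of all tested genes, and the difference between the members with and without the letters was not tested. The 4 most abundant members with these letters after the start are shown with the letters in capitals. In MRPL45 and MRPS18B the ATG is the annotated start codon, and in MRPL51 and MRPL20 it is not.
MRPL51 (chr12:6493226-6493249, minus strand): taaggcccAAGATGGCtgtcttcg
MRPL45 (chr17:38297173-38297196, plus strand): gcgggaacAAGATGGCagccccca
MRPL20 (chr1:1407263-1407286, minus strand): acccgggcAAGATGGCagcggcgc
MRPS18B (chr6:30617855-30617878, plus strand): cgtacgtcAAGATGGCggcgtctg

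The remaining letters were no more frequent in the members than in other tested genes. The NRF1 motif was found in 11.6% of the members' windows and 12.6% of those of other tested genes. GGGCGG, the core for SP1, was found in 60.9% and 71.6%, CCAAT in 28.99% and 37.3%, and TATAAA in 2.90% and 5.17%. The letters of the YY1 core and of the ETS core occurred together in 8 windows. A match describes the letters of the window and is not evidence of binding, which was not measured here.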

How the data were processed

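Total RNA of 6 libraries was prepared with a NEBNext Ultra RNA kit, per the labels' protocols. The authors deposited 1 table of FPKM, with 1 column per library. The submitters' processing notes name hg38 as the build, HISAT2 2.0.5 and featureCounts 1.5.0-p3. The sources used here do not name the gene models, strand setting or filters of the counting.

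Symbols, exon lengths and positions were taken from GENCODE 29, which holds 32301 of the 32434 IDs. Multiplied by exon length, FPKM fell on whole steps (within 0.01) in all libraries for 30810 IDs (95.4%), among them 77 of the 78 members, and these steps gave the fragments. Floors based on them hold for counting error only.

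limma 3.58.1 in R 4.3.3 was run two-sided on log2(FPKM + 1), with its variance trend, for the 14106 genes whose mean reached 1 FPKM, and p-values were adjusted over all of them (Benjamini-Hochberg, threshold 0.05). Differences subtract shNC from shMYT1 on that scale, where changes of low genes come out too small. The neighbour fit subtracts, in each library, the median centred log2 value of the 50 nearest tested genes from each gene, then fits limma again. Centred values are log2 levels minus the gene's mean over the 6 libraries. Samples were grouped by their titles. The fit was also run on simulated data with 50 genes changed at each of several sizes. It recovered 21 of those changed 1.25-fold, 42 at 1.5-fold, 40 at 2-fold and 49 at 4-fold. Of 161 calls, 9 were false. When 100 neighbouring genes were raised by 0.2 in log2, removing the neighbour median took their median from 0.17 to 0.02. None of these was called before or after, nor was a single gene among them that was raised further.

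Members, gene lists, regions of the ribosome and tests were chosen with earlier results of these data known. Every called member is named. Values in every library are given for the 8 largest rises and 8 largest falls among called members, the 4 highest and 4 lowest members, MRPS18A, MRPS18B, MRPS18C, MRPS30, MRPS36 and MYT1, and of each other list up to 4 called genes are named. MRPL18, MRPL44, MRPS27, MRPS2, MRPS5, MT-RNR1, SARS2, LUM, TAGLN and ACTA2 were named after their values were seen. Alternatives concerned the pseudocount (0.1), the filter, the scaling, the variance trend, the gene types tested and the threshold. Others ran voom on recovered fragments, blocked on the replicate number, or omitted 1 library at a time. A gene that the rule for similar profiles selects is not reported here.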

Additional observations from a re-analysis of the deposited data

How the results depend on the processing

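The count of all tested genes past the threshold was 2038 to 3048 when 1 library was left out, and 1494 at a threshold of 0.01. The members that rose numbered 5 to 9 and those that fell 4 to 7 with 1 library left out. At 0.01 there were 3 and 4. Without a filter 5 members fell (1314 of all genes), and with the neighbour median removed 4 fell (1406 of all genes). In the latter fit MRPL13, with neighbours at -0.23, turned to 0.00995 on the log2 scale. The family median was -0.0264 under a common FPKM total, -0.004 to 0.02 with 1 library left out, and the large minus small subunit median was -0.0561 to -0.0184. MYT1 stayed at -0.30 to -0.23 with 1 library left out and did not pass at 0.01 (-0.28). The cause of these shifts was not tested.

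With the replicate number as a block, 10 members rose and 8 fell, and 1652 and 1729 of all genes. Same-numbered libraries did not deviate together (correlations 0.0327, 0.0127 and 0.0426), so the numbers were not taken as pairs. Of the 18 called members, 9 passed with any 1 library left out, and MRPL10, MRPL30 and MRPL54 passed under every alternative run at the threshold of 0.05. With voom on recovered fragments, 10 members rose and 9 fell, and 2170 and 2284 of all 14070 genes. Without a variance trend, 8 members rose and 6 fell, and 1539 and 1609 of all 14106 genes. Without a filter MRPL17, MRPL40, MRPL43, MRPL58, MRPS6 and MRPS31 no longer passed (limma adjusted p = 0.0704 to 0.0912). With 3 libraries per group, small differences may go uncalled.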

Other observations

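The mean of the centred log2(FPKM + 1) values of the 77 tested members varied little among the 6 libraries, from -0.0233 in shNC replicate 1 to 0.0325 in shMYT1 replicate 2. Among the protein-coding genes outside the family with the most similar profile, of 11099, were PGK1, CCDC78, TRADD and H2AFZ. Their Pearson correlations with the family mean were 0.992, 0.981, 0.968 and 0.968 over 6 libraries, as a description. These genes were picked as the highest among 11099, so high values had to follow, and joint regulation was not tested. None of these 4 passed the test between shMYT1 and shNC, with log2 differences of 0.01, 0.06, 0.08 and 0.03.

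Rows with a related symbol that are pseudogenes or antisense genes numbered 21, each under 5 FPKM in every library. The highest was MRPL45P2, with 3.13, 4.12 and 4.72 FPKM in shMYT1 and 3.71, 3.47 and 3.77 FPKM in shNC, so that the shMYT1 values spread to both sides of the shNC values. MRPS31P5 had 0.699, 0.628 and 0.581 FPKM in shMYT1 and 0.349, 0.443 and 0.431 FPKM in shNC, with no overlap, and was below the level required for testing. Fragments shared with the near-identical parent genes, MRPL45 and MRPS31, cannot be assigned with certainty. Both pseudogenes were chosen after their values were seen.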
